A study of Mus musculus with 5 samples.

Results

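The 46 genes described here encode the soluble and membrane enzymes that couple drugs, hormones, bile acids and reactive compounds to a water-soluble group in the second phase of detoxification. They comprise 11 glucuronosyltransferases, 16 sulfotransferases and 19 glutathione transferases. They were chosen by symbol, as all names that begin with Ugt, Sult or Gst (classes a, k, m, o, p, t and z) followed by a number, among 19938 genes with a probe set assigned to exactly 1 symbol. Each gene was read from its brightest probe set, and Gstm3 alone had more than 1.

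All 5 livers came from male wild-type C57BL/6N mice aged 5 to 6 months. Every mouse had received streptozotocin, a toxin of the insulin-producing beta cells that is used to model diabetes, at 65 mg/kg on 5 consecutive days at an age of 10 to 16 weeks. Every mouse had then eaten bezafibrate, a lipid-lowering drug that activates PPAR receptors, for 8 weeks, a course that started 2 weeks after streptozotocin. The series concerns the effect of bezafibrate on insulin sensitivity in diabetic mice. The food held 0.25% or 0.5% bezafibrate by weight, and the labels do not give the amount per mouse. With 1 treatment group there was no contrast between treatments, so the measurements give levels in doubly treated livers and how far these 5 mice differed. Mice are numbered 1 to 5 as in the labels, and the numbers carry no order. The labels call the mice biological replicates.

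As background, glucuronosyltransferases (UGTs) sit in the endoplasmic reticulum and transfer glucuronic acid from UDP-glucuronic acid to bilirubin, steroids and drugs. Cytosolic sulfotransferases (SULTs) transfer sulfonate from the donor PAPS to phenols, steroids and bile acids, and several mouse SULT genes are known for strong sex bias in liver. Glutathione transferases (GSTs) add glutathione to electrophiles, and many are known targets of the oxidant-sensing factor NRF2 and of the xenobiotic receptors CAR and PXR.

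Values are log2 signals of Affymetrix arrays, on which 1 unit stands for a doubling. Because each gene is read by its own probes, levels were compared between mice and not between genes. Array medians lay between 6.22 and 6.31 and Pearson's r of array pairs between 0.971 and 0.993, taken across probe sets, which are no independent replicates. A brightness floor was set on each array at the 95th percentile of olfactory and vomeronasal receptor probe sets, taken as silent in liver. Mouse 4 had the highest floor (6.07), and the remaining floors lay between 5.59 and 5.79. All 6 measured hepatocyte markers exceeded the floor in all mice, with a mean level of 12.8 to 12.9 in each. Mouse 1 had the highest mean deviation of Kupffer cell and macrophage markers (0.40 over 7 tested genes, 6 of 7 above the floor in all mice, mean level 8.25 to 8.88 over mice). It also had the highest of skeletal muscle markers (0.54 over 3 tested of 6, mean level 5.86 to 6.53). The erythroid markers Alas2 and Slc4a1, 2 genes of 6 listed, had a mean deviation of 0.45 in mouse 1 and 0.32 in mouse 3. Their smaller SD was 0.19 and their larger 0.55, so the 2 genes did not deviate alike. All 7 stellate and 6 endothelial cell markers exceeded the floor in all mice, as did 3 of 5 of bile duct, 2 of 5 of adipocytes, 2 of 4 of kidney, 1 of 3 of pancreas and 1 of 6 of neutrophils. In bulk tissue, fewer cells of a type and less RNA per cell cannot be told apart.

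Glucuronosyltransferases and glutathione transferases were nearly all above the floor in these livers, while most sulfotransferases were not. In all 5 mice, 10 of 11 glucuronosyltransferases, 17 of 19 glutathione transferases and 6 of 16 sulfotransferases exceeded the floor, against 60.0% of all genes. Genes below the floor on all arrays were Ugt8a, a ceramide galactosyltransferase known from myelin, Gsto2 and Gstt4. Among sulfotransferases they were Sult1c1, Sult2a3, Sult2a6, Sult2b1, Sult3a1, Sult3a2, Sult4a1, Sult6b1 and Sult6b2. Sult3a1 is known as a female-biased gene of mouse liver, and its values in these males were 3.28 to 3.75. Sult2b1, a cholesterol sulfotransferase known from skin, had values of 5.33 to 5.56, and the brain form Sult4a1 of 5.42 to 5.63. Sult1e1, the estrogen sulfotransferase, exceeded the floor in mouse 1 only.

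**Figure D1:**
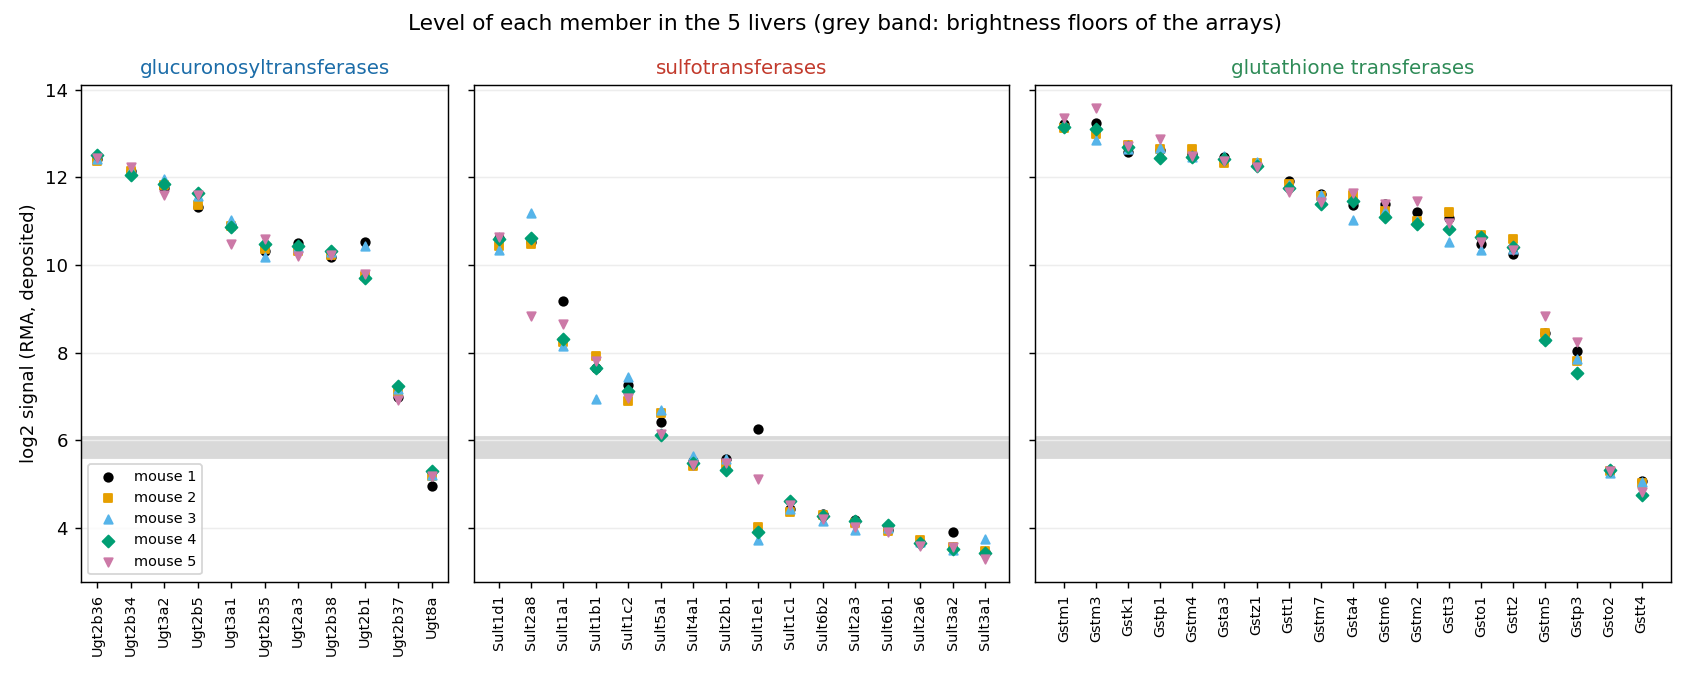
Log2 signal of all 46 members (y axis) in each of the 5 mice (symbols), with genes sorted by mean within each family and the grey band spanning the array floors of 5.59 to 6.07. Among sulfotransferases, 6 of 16 lie above the band in all mice, and Sult2a8 has a low value in mouse 5 and Sult1e1 a high value in mouse 1. Heights of different genes are not comparable.

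For 17 further genes of the families the annotation gave shared probe sets only, so they are no members. A single probe set stood for 8 Ugt1a genes, which share their last exons. It gave 11.47, 11.50, 11.43, 11.55 and 11.43 in mice 1 to 5, an SD of 0.05. The probe set of Ugt2a1 and Ugt2a2 stayed below the floor in all mice (3.77 to 4.07). So did the 2 probe sets shared by the hydroxysteroid sulfotransferase genes Sult2a1 and Sult2a2, one of them also by Sult2a4 and Sult2a5 (3.63 to 4.48). These genes are known as female-biased in mouse liver.

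The spread between mice was tested by comparing each probe set's variance with the variance expected at its level, in 1 fit over 14546 probe sets of 13298 genes whose mean exceeded 5.78, the mean of the floors (limma, Benjamini-Hochberg adjusted p under 0.05). These genes included 33 members, the same 33 that exceeded the floor in all mice. Over all genes, 0.286% passed. Among the members 1 of 33 passed, the sulfotransferase gene Sult2a8. An unadjusted p under 0.05 was reached by 9 of 33 members, against 6.40% of all tested genes. By family these were 2 of 10 glucuronosyltransferases, 3 of 6 sulfotransferases and 4 of 17 glutathione transferases. The SD exceeded the expected SD in 7 of 10, 6 of 6 and 13 of 17 members of these families, against 47.0% of all tested genes. High shares were not particular to the members. In lists described below they were 12 of 13 methyl-, acetyl- and amino acid transferases, 8 of 8 export pump genes and 13 of 16 NRF2 targets. They were lower for genes of sulfate supply (3 of 8) and glutathione supply (5 of 10). The median SD was 0.14 for glucuronosyltransferases, 0.32 for sulfotransferases and 0.12 for glutathione transferases, against 0.12 for all tested genes. These groups differ in level, and with it in expected SD. The square root of the median ratio of variance to expected variance was 1.35, 2.56 and 1.34 for these families, against 0.965 for all tested genes. Without mouse 3 the sulfotransferase median SD was 0.21, and without mouse 5 the glucuronosyltransferase median SD was 0.08. By position, mice 1 to 5 were the highest for 6, 6, 7, 4 and 10 of the 33 members, against 24.0%, 25.6%, 22.8%, 8.44% and 19.2% of all tested genes. They were the lowest for 4, 4, 9, 9 and 7, against 11.6%, 11.4%, 18.9%, 36.5% and 21.6%. In 3 of 33 members (Gstm5, Sult1b1 and Ugt3a1) 1 mouse lay apart by its gap over the range, against 5.65% of all tested genes. Genes are not replicates, so the differences between the families were not tested.

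**Figure D2:**
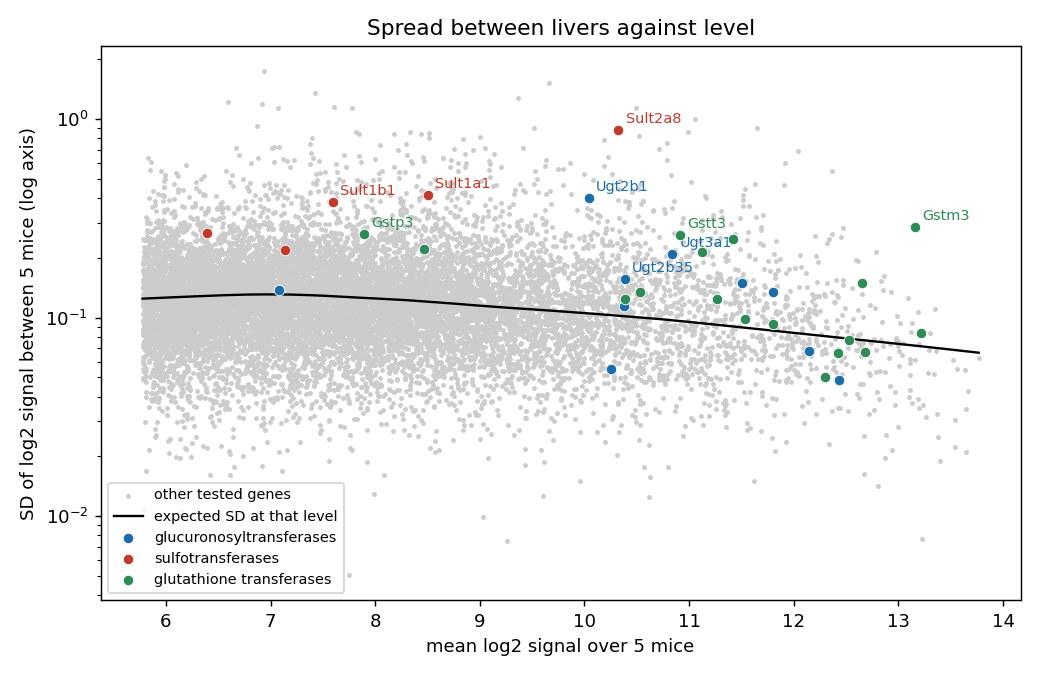
SD of the log2 signal between the 5 mice (y axis, log scale) against the mean log2 signal (x axis) for 13298 tested genes, with the expected SD at each level as a line and the 33 tested members coloured by family. All 6 sulfotransferases lie above the line, Sult2a8 farthest with an SD of 0.87 against an expected 0.10.

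Sulfotransferases held the member with the largest SD of the 33 tested. Sult2a8, a liver sulfotransferase known to act on bile acids, had 10.52, 10.47, 11.18, 10.61 and 8.84 in mice 1 to 5. Mouse 5 lay 5.04-fold below mouse 3, and the other 3 mice lay within 0.14 of each other. The mean was 10.32 ± 0.87 (SD, n = 5), with an SD 8.56 times that expected (limma adjusted p = 0.0121). The gene ranked 14 of 13298 tested genes by its ratio of variance to expected variance. The call was lost without mouse 5 (SD 0.33, limma adjusted p = 0.158) and without mouse 4 (SD 0.99, limma adjusted p = 0.1), where limma called 0 probe sets in all and 863 had an unadjusted p under 0.05. It was also lost without the robust step (limma adjusted p = 0.0996) and without the trend on level (limma adjusted p = 0.084). Over all alternatives run, the limma adjusted p ranged from 0.000618 to 0.158.

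In the same livers, male-biased genes of other families deviated on average by 0.05, 0.06, 0.39, -0.13 and -0.37 in mice 1 to 5 (10 tested, 1 called). Their widest member, the elongase gene Elovl3, had 11.42 in mouse 3 and 9.58 in mouse 5 (SD 0.75, limma adjusted p = 0.0196), and Cyp7b1 had 10.32 and 8.84. Mouse 3 was thus highest and mouse 5 lowest for Sult2a8, for this list's mean and for both genes named from it. Female-biased genes of other families deviated by -0.38 in mouse 3, 0.21 in mouse 4 and 0.12 in mouse 5 (8 tested, 1 called), with Cyp2b13 (SD 0.86) and the thioesterase gene Acot3 (0.43) widest among the tested genes. The untested Slc22a26 (SD 0.64) exceeded the floor in mouse 1 only. The part of sex-biased expression in the spread of Sult2a8 was not tested.

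RefSeq (build GRCm38.p6) gives Sult2a8 2 start sites, and the window of the upstream one, 250 bases before to 50 after the start, is shown because it belongs to the 1 member whose variance passed. It lies at chr7:14446538-14446837 on the minus strand. No capitals appear because none of the 4 elements searched (given with the glutathione transferases) was found in either window of the gene, which says nothing about the factors that bind there.
Sult2a8: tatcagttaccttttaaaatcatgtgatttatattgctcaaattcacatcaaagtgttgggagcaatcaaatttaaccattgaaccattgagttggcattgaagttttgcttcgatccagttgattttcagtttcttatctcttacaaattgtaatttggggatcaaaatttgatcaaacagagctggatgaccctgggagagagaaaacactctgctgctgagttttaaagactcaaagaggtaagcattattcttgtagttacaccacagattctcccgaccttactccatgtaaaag

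The phenol sulfotransferase gene Sult1a1 was highest in mouse 1. Its values were 9.17, 8.24, 8.16, 8.31 and 8.64 in mice 1 to 5, a 2.01-fold span around a mean of 8.50 ± 0.41 (SD, n = 5). Its variance did not pass over all genes (limma adjusted p = 0.265), and the SD was 0.21 without mouse 1. Sult1b1, known for sulfating thyroid hormone, was low in mouse 3. It had 7.65, 7.92, 6.95, 7.65 and 7.81, with a mean of 7.60 ± 0.38 (limma adjusted p = 0.393), and its SD was 0.13 without mouse 3. Sult1d1, which sulfates catecholamines, was also lowest in mouse 3, by a smaller margin, with 10.62, 10.44, 10.33, 10.58 and 10.64 (SD 0.13).

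The remaining tested sulfotransferases were closer to the floor. Sult1c2 had 7.27, 6.90, 7.44, 7.13 and 6.97 in mice 1 to 5 (SD 0.22), and Sult5a1, an enzyme of unsettled substrate, 6.42, 6.63, 6.68, 6.12 and 6.13 (SD 0.27). Neither passed (limma adjusted p = 0.968 and 0.810), and in mouse 4 Sult5a1 lay within 0.05 of that array's floor. Sult5a1 lay above the 95th percentile floor in all mice and was lost from the count with the 99th percentile, which left 5 of 16 sulfotransferases.

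Sult1e1, known to rise in livers of diabetic mice, had 6.25 in mouse 1, 5.12 in mouse 5 and 4.02, 3.72 and 3.90 in mice 2, 3 and 4. Only the value of mouse 1 exceeded its array's floor, by 0.67, so the other values have no firm order. The mean of 4.60 kept the gene out of the main test. When all probe sets with 1 symbol were tested without a filter, its SD of 1.07 passed (limma adjusted p = 0.0337), which made 2 sulfotransferases called instead of 1. Mouse 1 was highest for Sult1a1 and Sult1e1 as well as for the macrophage, muscle and erythroid markers given above and the stellate cell markers (0.16 over 7 genes), and the part of other cells in these values was not tested.

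**Figure D3:**
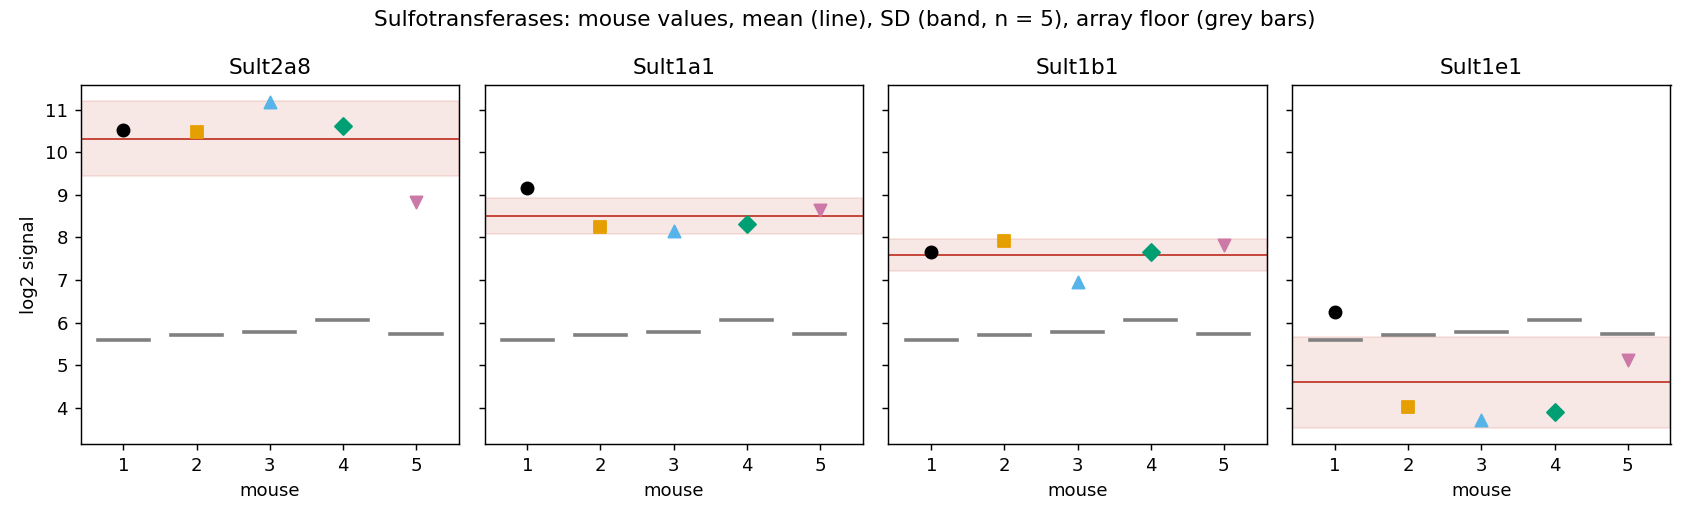
Log2 signal (y axis) of the sulfotransferase genes Sult2a8, Sult1a1, Sult1b1 and Sult1e1 in mice 1 to 5 (x axis), with the mean as a line, the SD as a band (n = 5) and each array's floor as a grey bar. Sult2a8 is low in mouse 5 (8.84), Sult1a1 high in mouse 1 (9.17), Sult1b1 low in mouse 3 (6.95), and Sult1e1 lies above the floor in mouse 1 only (6.25).

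Among glucuronosyltransferases, Ugt2b1 had the widest spread and its values fell into 2 sets. They were 10.52 and 10.44 in mice 1 and 3 and 9.75, 9.70 and 9.80 in mice 2, 4 and 5, with a mean of 10.04 ± 0.40 (SD, n = 5) and a 1.76-fold span. The SD was 3.82 times that expected and did not pass over all genes (limma adjusted p = 0.203). No single mouse set it, since the lowest SD on leaving 1 mouse out was 0.35. Mice 1 and 3 were also those with the higher mean deviations of the erythroid markers given above, and whether that bears on Ugt2b1 was not tested.

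The remaining Ugt2b genes varied far less. Ugt2b35 had 10.31, 10.36, 10.18, 10.48 and 10.59 in mice 1 to 5 (SD 0.16), lowest in mouse 3 where Ugt2b1 was high. Ugt2b5 had 11.32, 11.37, 11.57, 11.65 and 11.61 (SD 0.15). Ugt2b37 had 6.98, 7.10, 7.18, 7.25 and 6.92 (SD 0.14). None of these passed (limma adjusted p = 0.992, 0.969 and 0.992). The 3 members with the smallest SDs were Ugt2b36, Ugt2b38 and Ugt2b34. Ugt2b36 had 12.42, 12.39, 12.41, 12.51 and 12.45 (SD 0.05), Ugt2b38 10.19, 10.23, 10.29, 10.32 and 10.22 (SD 0.06), and Ugt2b34 12.14, 12.15, 12.16, 12.05 and 12.24 (SD 0.07). Their SDs were 0.609, 0.536 and 0.828 times those expected, so all 3 lay below the expectation for their level. Ugt2a3, which acts on bile acids, had a mean of 10.38 ± 0.11 (SD, n = 5).

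Ugt3a genes, whose enzymes use other UDP-sugars than glucuronic acid, were lowest in mouse 5. Ugt3a1 had 10.91, 10.90, 11.03, 10.87 and 10.48 in mice 1 to 5 (SD 0.21, limma adjusted p = 0.762), and 0.07 without mouse 5. Ugt3a2 ranged from 11.60 in mouse 5 to 11.97 in mouse 3 (SD 0.14). The 2 probe sets shared by these genes gave 11.23 and 11.08 in mouse 5, below 11.53 to 11.72 and 11.36 to 11.49 in the other mice. All 4 probe sets thus had mouse 5 lowest and mouse 3 highest, although shared probes mean that they are not independent.

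In RefSeq order, the Ugt2 genes and 3 Sult1 genes form 1 run of 13 neighbouring protein-coding genes with no other gene between them, 11 of which are members. Some neighbours differed and others shared an extreme mouse. Next to Ugt2b1 (SD 0.40) lay Ugt2b34 (SD 0.07) and Ugt2b35 (SD 0.16). Ugt2b36, Ugt2b5, Ugt2b37 and Ugt2b38 were highest in mouse 4, by 0.08, 0.15, 0.16 and 0.07 above their means. Mouse 4 was thus highest for 4 of 7 Ugt2b genes, against 8.44% of all tested genes. It was also highest for 3 of 6 hepatocyte markers, and for 0 of 17 tested glutathione transferases. For Ugt2b36 and Ugt2b38 the SD was 0.609 and 0.536 times that expected, so their order rests on small differences. With arrays centred on their medians, Ugt2b5 was highest in mouse 5 instead. At the other end of the run, Sult1b1 and Sult1d1 were lowest in mouse 3, by 0.65 and 0.19 below their means. Mouse 3 was lowest for 18.9% of all tested genes. Sult1e1 also had its lowest value in mouse 3, but it exceeded the floor in mouse 1 only, so its other values have no firm order. Ugt2b1 was 0.40 above its mean in mouse 3.

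**Figure D4:**
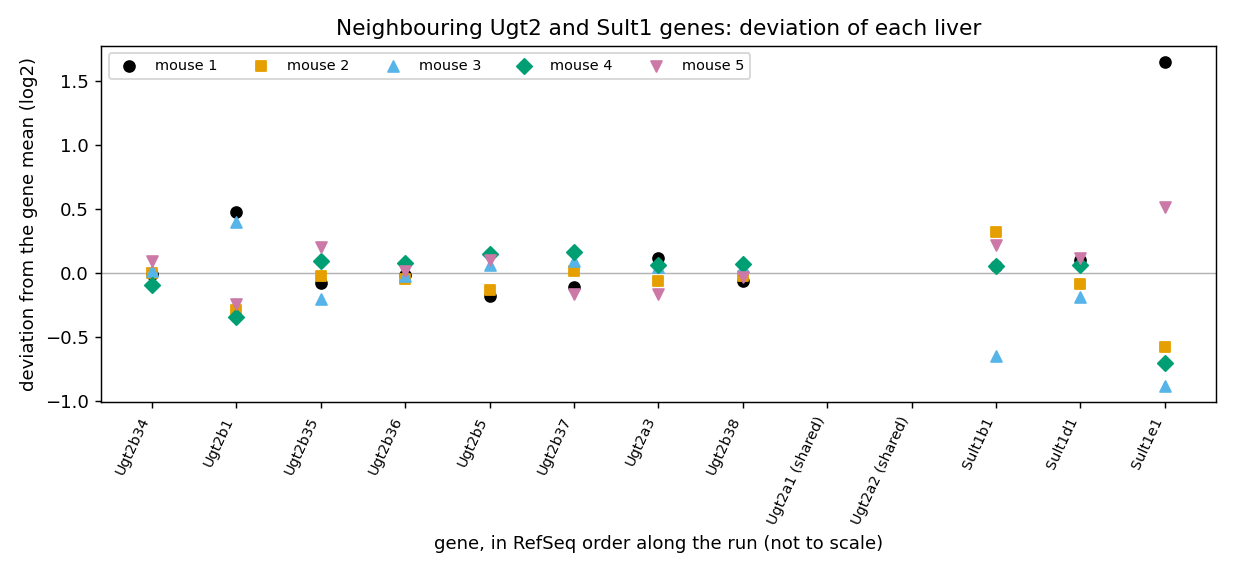
Deviation from the gene's mean over 5 mice (y axis, log2) for the run of neighbouring Ugt2 and Sult1 genes in RefSeq order (x axis, not to scale), with 1 symbol per mouse. Ugt2b1 splits into mice 1 and 3 above and mice 2, 4 and 5 below, while Ugt2b34, Ugt2b36 and Ugt2b38 stay within 0.10 of their means. Ugt2a1 and Ugt2a2 have a shared probe set and no points.

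Among glutathione transferases, mouse 5 was highest for 7 of 17 tested members, against 19.2% of all tested genes, and 6 of these 7 belong to the mu and pi classes. The mu class, a tandem run of 7 genes that conjugate a broad range of electrophiles, was led by Gstm3. Its brightest probe set had 13.24, 12.99, 12.84, 13.10 and 13.60 in mice 1 to 5, a mean of 13.15 ± 0.29 (SD, n = 5) and a 1.68-fold span. Mouse 5 was highest and mouse 3 lowest. The SD was 3.96 times that expected and did not pass over all genes (limma adjusted p = 0.187), and it was 0.17 without mouse 5. Its second probe set gave 13.02, 12.73, 12.42, 12.69 and 13.36, with an SD of 0.36 and the same mice highest and lowest.

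Gstm5, Gstm2 and Gstm1 were also highest in mouse 5. Gstm5 had 8.45, 8.44, 8.34, 8.28 and 8.84 (SD 0.22), and its SD was 0.08 without mouse 5. Gstm2 ranged from 10.94 in mouse 4 to 11.46 in mouse 5 (mean 11.12 ± 0.21, SD, n = 5), and Gstm1 from 13.14 in mouse 2 to 13.35 in mouse 5 (mean 13.21 ± 0.08), with mouse 4 lowest under the other scalings. Gstm6 (11.27 ± 0.12) and Gstm7 (11.53 ± 0.10) were highest in mouse 1, and Gstm4 (12.53 ± 0.08) in mouse 2. Neighbouring genes of the mu run thus did not all have the same mouse highest. The mean deviation of the 7 mu genes was 0.05, -0.03, -0.08, -0.12 and 0.18 in mice 1 to 5. The sign in mouse 2 turned with arrays centred on their medians (0.01). Limma called 0 of the 7, and 2 of them had an unadjusted p under 0.05.

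The pi class showed the same pair of extremes, mouse 5 highest and mouse 4 lowest. Gstp1, which is abundant in male mouse liver, ranged from 12.45 in mouse 4 to 12.87 in mouse 5 (mean 12.65 ± 0.15, SD, n = 5). Gstp3 had 8.02, 7.81, 7.86, 7.53 and 8.23 in mice 1 to 5 (SD 0.26, limma adjusted p = 0.8). The 2 probe sets shared by Gstp1 and Gstp2 were also highest in mouse 5 (11.52 and 11.23) and lowest in mouse 4 (11.15 and 10.86). Mouse 4 was lowest for 36.5% of all tested genes, so its low values are common on this array.

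Alpha-class genes split. Gsta4, which detoxifies the lipid peroxidation product 4-hydroxynonenal, had 11.37, 11.59, 11.02, 11.46 and 11.65 in mice 1 to 5 (SD 0.25, limma adjusted p = 0.473), and 0.13 without mouse 3. The 4 probe sets shared by Gsta1, Gsta2 and 2 predicted genes had SDs of 0.30 to 0.35, and all 4 were lowest in mouse 3 and highest in mouse 5. The brightest of them gave 11.92, 12.06, 11.50, 12.13 and 12.41. Gsta3 did not share this pattern, with 12.47, 12.34, 12.50, 12.43 and 12.37 (SD 0.07), where mouse 3 was the highest, or mouse 1 with arrays centred on their medians. In the RefSeq table Gsta4 neighbours Gsta1, and Gsta3 lies in another run.

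Theta-class Gstt3 was also low in mouse 3, with 11.06, 11.20, 10.52, 10.82 and 10.96 (SD 0.26, limma adjusted p = 0.481) and an SD of 0.16 without that mouse. Its neighbours Gstt1 (11.81 ± 0.09, SD, n = 5) and Gstt2 (10.39 ± 0.12) were lowest in mice 5 and 1. The omega-class gene Gsto1, which reduces dehydroascorbate and arsenic compounds, had a mean of 10.53 ± 0.13. Among the 3 smallest SDs of the 17 tested members were those of Gstk1 and Gstz1, which have roles outside drug conjugation, beside Gsta3. Gstz1, the maleylacetoacetate isomerase of tyrosine breakdown, had 12.28, 12.33, 12.36, 12.26 and 12.25 (SD 0.05). Gstk1, found in mitochondria and peroxisomes, had 12.58, 12.75, 12.65, 12.70 and 12.71 (SD 0.07).

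**Figure D5:**
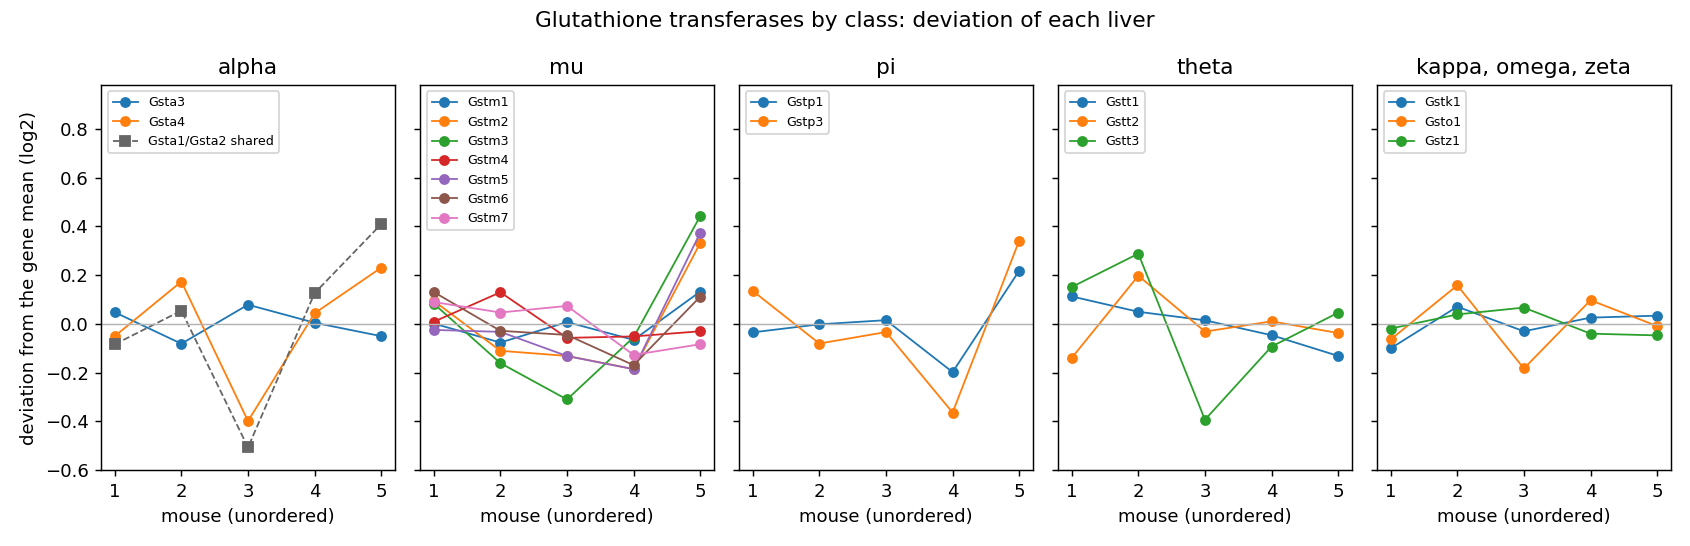
Deviation from the gene's mean (y axis, log2) of the 17 tested glutathione transferases by class in mice 1 to 5 (x axis; lines join the values of 1 gene and imply no order), with the brightest probe set shared by Gsta1 and Gsta2 as a dashed line. Gstm3, Gstm2, Gstm5, Gstp1 and Gstp3 are highest in mouse 5, and Gsta4, Gstt3 and the shared Gsta1/Gsta2 probe set are lowest in mouse 3.

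Targets of known regulators outside the 3 families are given beside the members, and their part in the members' values was not tested. NRF2 targets had mean deviations of -0.02, 0.07, -0.17, -0.07 and 0.19 in mice 1 to 5 (16 tested, 0 called by limma, 5 at an unadjusted p under 0.05), with the sign in mouse 1 turning with arrays centred on their medians (0.0076). Hmox1, of heme breakdown, and the carbonyl reductase gene Cbr3 had the largest SDs of the tested genes (0.58 and 0.42), and both were highest in mouse 5. The untested cystine transporter gene Slc7a11, also on the glutathione list, had 6.38 in mouse 5 and 4.65 to 4.84 in the others, where it lay below the floor (SD 0.74). CAR and PXR targets deviated by 0.23, 0.04, -0.45, 0.02 and 0.16, and the sign in mouse 4 turned with centring (-0.03). Limma called 3 of the 15, against 0.286% of all tested genes. They were the transporter gene Slco1a4 (SD 1.14, limma adjusted p = 0.0114) and the cytochrome P450 genes Cyp2b13 (SD 0.86, limma adjusted p = 0.0289) and Cyp2c55 (SD 0.75, limma adjusted p = 0.0479). Cyp2b13 is also the 1 called gene of the female-biased list. All 3 called genes had their lowest value in mouse 3, as did Gsta4, Gstt3, Gstm3 and Sult1b1. Mouse 3 was lowest for 9 of the 33 tested members, against 18.9% of all tested genes. It was highest for 7 members, and Sult2a8 and Ugt2b1 lay 0.85 and 0.40 above their means there. Targets of the dioxin receptor AHR (3 tested, 0 called by limma, 2 at an unadjusted p under 0.05) deviated by 0.27 in mouse 5 and -0.20 in mouse 4, with Nqo1 (SD 0.31), also on the NRF2 list, and Cyp1a2 (0.30) widest.

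Promoter windows were searched on both strands for the core of the antioxidant response element through which NRF2 acts (TGACNNNGC), for the nuclear receptor elements DR1 and DR4, direct repeats of AGGTCA with 1 or 4 bases between, and for the palindromic HNF1 element. Windows ran from 250 bases before to 50 after each RefSeq start (GRCm38.p6) and were found for 42 of 46 members, 53 windows in all. The antioxidant core occurred in 3 of 25 glutathione transferase windows (12%), in 0 of 10 glucuronosyltransferase and in 0 of 18 sulfotransferase windows, against 12.4% of all 32851 windows. The glutathione transferase share was thus near that of all windows. DR1, DR4 and HNF1 occurred in 0 of the 53 and in 0.0396%, 0.0152% and 0.00913% of all windows. The 3 windows with a match are shown because no other member window held a searched element. Their genes did not share a highest mouse, which was mouse 5 for Gstm5, mouse 1 for Gstm7 and mouse 3 for Gsta3 on the deposited scale. Capitals mark the match. Gstm5 lies at chr3:107895604-107895903 on the plus strand, with the match 42 bases before the start. Gstm7 lies at chr3:107931565-107931864 on the minus strand, with the match 129 bases before the downstream one of its 2 RefSeq starts, and Gsta3 at chr1:21240335-21240634 on the plus strand, with the match 121 bases before the start. A match is a description of the letters only.
Gstm5: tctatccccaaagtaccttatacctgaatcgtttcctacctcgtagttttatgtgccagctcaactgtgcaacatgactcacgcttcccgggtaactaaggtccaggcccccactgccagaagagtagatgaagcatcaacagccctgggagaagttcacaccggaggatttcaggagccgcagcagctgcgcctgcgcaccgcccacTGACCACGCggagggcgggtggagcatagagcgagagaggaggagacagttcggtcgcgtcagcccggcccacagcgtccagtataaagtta
Gstm7: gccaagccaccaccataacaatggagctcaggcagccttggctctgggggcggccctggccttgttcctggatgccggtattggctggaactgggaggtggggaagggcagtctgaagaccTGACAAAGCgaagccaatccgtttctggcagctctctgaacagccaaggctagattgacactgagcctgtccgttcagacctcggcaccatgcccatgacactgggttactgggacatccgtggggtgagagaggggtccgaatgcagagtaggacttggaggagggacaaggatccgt
Gsta3: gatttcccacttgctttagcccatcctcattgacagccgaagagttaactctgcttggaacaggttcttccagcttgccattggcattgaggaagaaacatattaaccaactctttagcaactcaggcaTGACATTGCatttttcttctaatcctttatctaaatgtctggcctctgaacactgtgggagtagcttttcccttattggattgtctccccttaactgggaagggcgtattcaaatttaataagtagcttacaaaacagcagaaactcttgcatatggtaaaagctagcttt

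Mean deviations were taken over the tested members of each family. Glucuronosyltransferases had mean deviations of 0.02, -0.05, 0.08, 0.03 and -0.07 in mice 1 to 5, with the sign in mouse 4 turning with arrays centred on their medians (-0.02). Sulfotransferases had 0.19, 0.02, 0.04, -0.01 and -0.24, and glutathione transferases 0.02, 0.03, -0.09, -0.08 and 0.11. Mouse 5 was thus below the mean for glucuronosyltransferases and above it for glutathione transferases, under all 3 scalings. Neither deviation was shared across its family. In mouse 5 the 2 Ugt3a genes deviated by -0.28 on average and Ugt2a3 by -0.17, but the 7 Ugt2b genes by -0.002. Mu, pi and alpha classes deviated by 0.18, 0.28 and 0.09 there, and the 3 tested theta genes by -0.04. The sulfotransferase value in mouse 5 rested on Sult2a8, which deviated by -1.48 there, while the 4 tested Sult1 genes deviated by 0.08 on average. The SD of the 5 mean deviations was 0.06 over 10 glucuronosyltransferases, 0.16 over 6 sulfotransferases and 0.08 over 17 glutathione transferases, and these values depend on the number of genes averaged. With the median of the members in place of the mean, the sulfotransferase value was 0.05, and without mouse 5 it was 0.09. For glutathione transferases the value with the median was 0.04.

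Genes that supply the 3 donors held no member called by limma. For UDP-glucuronic acid (7 tested of 8 measured, 0 called by limma, 0 at an unadjusted p under 0.05), the deviations were 0.05, 0.07, -0.11, -0.07 and 0.07 in mice 1 to 5. Slc35b1 (SD 0.17) and Pgm2 (0.14) were widest, while Ugdh, which makes UDP-glucuronic acid, had 12.39 ± 0.12 (SD, n = 5). For sulfate and PAPS (8 tested of 9, 0 called by limma, 2 at an unadjusted p under 0.05), they were 0.07, 0.05, 0.09, -0.07 and -0.14. The value in mouse 5 rested largely on Cdo1, and of the 8 genes 3 were lowest in mouse 5 and 3 in mouse 4. Cdo1, which opens the route from cysteine to sulfate, had 11.45, 11.08, 11.60, 11.07 and 10.54 (SD 0.41, limma adjusted p = 0.135), highest in mouse 3 and lowest in mouse 5, and the sulfate transporter gene Slc26a1 had an SD of 0.25. A second sulfate transporter gene, Slc13a1 (SD 0.33), was untested and below the floor in all mice. For glutathione (10 tested of 11, 0 called by limma, 2 at an unadjusted p under 0.05), they were 0.01, 0.07, -0.08, -0.07 and 0.07. Gss, which encodes glutathione synthetase, had 9.15, 9.46, 8.81, 9.41 and 10.09 (SD 0.47, limma adjusted p = 0.148), lowest in mouse 3 and highest in mouse 5, the mice that were lowest and highest for Gstm3 and Gsta4. Chac1, of glutathione breakdown, had an SD of 0.27. Membrane-bound glutathione transferases and relatives (4 tested of 6, 0 called by limma, 1 at an unadjusted p under 0.05) had Mgst3 as the widest tested gene, which also was 8.84 in mouse 3 and 9.95 in mouse 5 (SD 0.47, limma adjusted p = 0.148), followed by Alox5ap (0.23). The untested Mgst2 (SD 0.50) exceeded the floor in 2 of 5 mice.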

How the data were processed

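Total RNA of 5 livers was hybridised to 1 Affymetrix whole-transcript array each. The authors deposited log2 values, a single one for each probe set on each array. Affymetrix Expression Console 1.2 and RMA made them, per the submitters' processing notes, which give no settings. RMA makes array distributions alike and compresses differences near background. The genome build and scan dates are not given in the sources used here, and probe-level signals were not used. Arrays hold no counts, so their number limits the precision.

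Of 35556 probe sets, 21789 had 1 symbol in the platform annotation. Each gene was read from its brightest probe set. All 46 members matched the RefSeq gene table (GRCm38.p6) by symbol, which was used for names and gene order only. The brightness floor used 1205 receptor probe sets. A model of the mean alone was fitted in limma 3.58.1 (R 4.3.3, statmod 1.5.0) to the 14546 probe sets above the floor on average, and each variance was set against limma's robust trend by an upper-tail F test on 4 residual and 6.23 prior degrees of freedom. Data were also simulated with the means of the same 14546 probe sets, as independent normal values with the fitted spread. In them, 83 of 100 with a 10-fold SD and 32 of 100 with a 5-fold SD were called, with 3 false calls. Because the simulation follows the model of the test, it cannot show how the test behaves where real arrays depart from that model. The spread between mice includes technical spread. Deviations are values minus the gene's mean over the 5 mice, averaged over tested genes of a list. Python 3.11.15 with numpy 2.4.6 and pandas 2.3.3 was used.

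All members are named. Values in every mouse are given for called members, for the 5 largest and 3 smallest SDs of each family and for the widest gene of a subfamily. From each other list, the 2 largest SDs, over all and over tested genes, and any called gene are named. Members and lists were chosen with earlier results of these data known. Alternatives were other normalizations, filters, variance fits, floors and gene summaries, and leaving out each mouse. Protein sequences were not used here.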

Additional observations from a re-analysis of the deposited data

Results flagged for a closer look

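In 4 members a single mouse stood apart, with a gap to its nearest neighbour that was large against the range of the 5 values. Among the tested members this held for 3 of 33, against 5.65% of all tested genes, and chance alone marks about 1 gene in 20. Gstm5 was 8.84 in mouse 5 and at most 8.45 in the other mice. Sult1b1 was 6.95 in mouse 3 and at least 7.65 in the others. Ugt3a1 was 10.48 in mouse 5 and at least 10.87 in the others. Sult3a2 was 3.90 in mouse 1 and at most 3.55 in the others, all below the floor, so this difference lies within background signal.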

How the results depend on the processing

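Of 396 values of single tested members under alternative settings, 392 kept their side of the threshold and 4 did not, all of them for Sult2a8 (limma adjusted p of 0.0840 to 0.158 in those 4). The count of sulfotransferases called was 1, but 2 with no filter on dim probe sets, 0 with no robust step and 0 with no trend on the mean, and it ranged from 0 to 1 when single mice were left out. Limma called 52 probe sets over all genes, and 146 with arrays centred on their medians, 29 with the filter above the floor on all arrays, 18 with no robust step and 25 with no trend on the mean. Leaving out 1 mouse gave 0 to 69, with 0 (863 at an unadjusted p under 0.05) without mouse 4. For glucuronosyltransferases and glutathione transferases limma called 0 members under all settings run. In the main test, 2 and 4 of them had an unadjusted p under 0.05. The median SDs ranged over left-out mice from 0.08 to 0.15 for glucuronosyltransferases, 0.21 to 0.35 for sulfotransferases and 0.10 to 0.13 for glutathione transferases. The SDs of the mean deviations ranged from 0.05 to 0.07, 0.09 to 0.18 and 0.07 to 0.10. In 17 of 33 members the SD was over 1.5 times that without 1 mouse, against 46.6% of all tested genes. Centring on medians shifted tested genes by at most 0.05 in a mouse. No paired analysis was possible because the labels give 1 group. Signal limits the 13 members with a mean below the floor, whose values have no firm order.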

Other observations

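Other conjugating enzymes and conjugate transporters were described from lists chosen with earlier results known. Among methyl-, acetyl- and amino acid transferases (13 tested of 14 measured), limma called 1, Nnmt, which methylates nicotinamide, with 10.36, 9.46, 8.09, 9.45 and 10.23 in mice 1 to 5 (SD 0.90, limma adjusted p = 0.0142). Mouse 3 was lowest for Nnmt, as it was for 9 of the 33 tested members, Gstm3, Gsta4, Gstt3 and Sult1b1 among them. It was highest for 7 of the 33, Sult2a8 among them. The acyl-CoA synthetase gene Acsm1, which serves glycine conjugation, was next with an SD of 0.23. Of 8 export pump genes limma called 0, with 1 at an unadjusted p under 0.05. Abcc4, which exports sulfated and glucuronidated bile acids and steroids, had 9.63, 9.83, 9.17, 9.56 and 9.94 (SD 0.30), again lowest in mouse 3, and Abcc6 had an SD of 0.21.

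Regulator genes had a median SD of 0.15, against 0.12 for all tested genes. Of 14 tested, limma called 0, with 1 at an unadjusted p under 0.05, and their mean deviation stayed between -0.04 and 0.04 in all mice on the deposited scale. The PXR gene Nr1i2 (SD 0.23) and Esrrg (0.19), an orphan nuclear receptor gene, were widest. Nr1i2 was lowest in mouse 3 (9.67) and highest in mouse 5 (10.27). Of 8 tested genes of mercapturate and conjugate processing limma called 0, with 2 at an unadjusted p under 0.05 and Nat8 (SD 0.36), which makes mercapturates, and Dpep1 (0.28) widest.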
